A study of Mus musculus with 3 samples.

Results

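H3K4me3 promoter peaks of MLg mouse lung fibroblasts that received TGFB1 together with an antagomiR against miR-9-5p (TGFB1+miR-9-LOF) were compared with those of MLg cells that received TGFB1 alone (TGFB1), to ask which promoters kept the mark and where its edges lay when miR-9 was blocked during TGFB1 signalling. A promoter peak was a deposited peak whose centre lay within 2000 bp of the nearest annotated transcription start site (TSS). By this rule 4818 of the 4959 peaks in the TGFB1+miR-9-LOF list and 8669 of the 9116 peaks in the TGFB1 list were promoter peaks. The series held a further list from cells without TGFB1 (Ctrl), with 8346 promoter peaks among 8727, which served here only as a point of comparison.

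MLg (ATCC CCL-206) is an established fibroblast line from mouse lung. H3K4me3 was measured by chromatin immunoprecipitation and sequencing with antibody ab8580, and each condition was 1 library. The antagomiR (labelled Anti-hsa-miR-Mir9-5p) was transfected at 60 nM, TGFB1 was added 20 h later at 5 ng/ml for 4 h, and cells were harvested 24 h after transfection. TGFB1+miR-9-LOF cells carried the antagomiR and TGFB1, TGFB1 cells are labelled with TGFB1 alone, and Ctrl cells are labelled WT. The study's text describes transfection with a control antagomiR probe (Anti-miR negative control, 60 nM) for the cells without the miR-9 probe, which the labels of the TGFB1 and Ctrl libraries do not mention. No measurement of miR-9 itself was analysed here. Because there was 1 library per condition, no difference below has a replicate check, no p-value is given, and the 95% intervals cover counting error only.

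Tri-methylation of lysine 4 on histone H3 marks nucleosomes around active and poised start sites, is strongest over CpG-rich promoters just downstream of the TSS, and spreads furthest at genes central to a cell's identity. TGFB1 binds a pair of receptor kinases that phosphorylate SMAD2 and SMAD3, which join SMAD4 and enter the nucleus, and in fibroblasts it turns on matrix and contractile genes. MicroRNAs are best known for pairing with messenger RNAs in the cytoplasm through their seed, and miR-9 has also been studied in the nucleus, at promoters that can fold into G-quadruplexes, 4-stranded structures of guanine runs.

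The RNA that the antagomiR is directed against is shown with its seed, bases 2 to 8, in capitals. The mouse RefSeq sequence is the same at Mir9-1 on chromosome 3, Mir9-2 on chromosome 13 and Mir9-3 on chromosome 7.
mmu-miR-9-5p: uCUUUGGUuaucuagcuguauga

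Promoter windows of 300 bases (250 before the TSS and 50 from it on, RefSeq, GRCm38.p6, the assembly also called mm10) are shown for 5 genes. They place listed peak edges or sequence matches relative to the TSS. An edge is where the peak caller ended a peak, and it does not locate the end of the mark to the base. In Cdkn1a and Kmt2c the capitals mark the bases still under the TGFB1+miR-9-LOF peak. The TGFB1 peak covered the whole window in both genes. The Cdkn1a window is chr17:29093519-29093818 on the plus strand and the Kmt2c window is chr5:25498734-25499033 on the minus strand.
Cdkn1a: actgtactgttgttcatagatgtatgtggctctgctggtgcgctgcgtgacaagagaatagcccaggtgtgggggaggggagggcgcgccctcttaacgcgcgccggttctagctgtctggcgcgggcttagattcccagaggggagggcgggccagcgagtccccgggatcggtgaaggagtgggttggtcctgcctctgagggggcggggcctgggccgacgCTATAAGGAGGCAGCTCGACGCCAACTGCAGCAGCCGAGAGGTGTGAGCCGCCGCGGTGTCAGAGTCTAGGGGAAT
Kmt2c: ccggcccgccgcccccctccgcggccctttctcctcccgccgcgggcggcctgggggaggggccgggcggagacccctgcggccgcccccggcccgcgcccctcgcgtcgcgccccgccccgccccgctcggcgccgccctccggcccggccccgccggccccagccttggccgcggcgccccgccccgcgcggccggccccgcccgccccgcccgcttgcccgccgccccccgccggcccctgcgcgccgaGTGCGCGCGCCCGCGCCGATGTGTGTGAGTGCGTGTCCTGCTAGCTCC

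Cdkn1a encodes p21, a cyclin-dependent kinase inhibitor that TGFB1 induces, and 76 of its 300 window bases remained under the TGFB1+miR-9-LOF peak. Kmt2c encodes a histone H3 lysine 4 methyltransferase, and 48 of its 300 bases remained. In 3 further windows the capitals mark a G-quadruplex match, defined as 4 runs of GGG or longer with 1 to 7 bases of any kind between neighbouring runs, on either strand, so that a match on the other strand shows as runs of CCC. Zdhhc5 and Ncl kept a peak in TGFB1+miR-9-LOF cells and Ski did not. The windows are chr2:84715115-84715414 for Zdhhc5, chr1:86359406-86359705 for Ncl and chr4:155222486-155222785 for Ski, all on the minus strand.
Zdhhc5: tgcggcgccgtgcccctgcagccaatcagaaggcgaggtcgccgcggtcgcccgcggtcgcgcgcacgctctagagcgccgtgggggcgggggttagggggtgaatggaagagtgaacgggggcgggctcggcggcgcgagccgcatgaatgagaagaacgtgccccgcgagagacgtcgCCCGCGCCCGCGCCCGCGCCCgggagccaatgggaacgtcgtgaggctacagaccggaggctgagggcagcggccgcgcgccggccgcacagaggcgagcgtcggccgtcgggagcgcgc
Ncl: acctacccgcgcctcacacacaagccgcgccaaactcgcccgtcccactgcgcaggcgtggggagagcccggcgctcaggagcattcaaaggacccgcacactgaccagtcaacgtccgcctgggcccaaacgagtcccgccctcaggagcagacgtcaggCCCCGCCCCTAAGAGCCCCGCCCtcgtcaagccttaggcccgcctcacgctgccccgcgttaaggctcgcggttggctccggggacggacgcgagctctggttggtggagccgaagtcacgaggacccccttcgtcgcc
Ski: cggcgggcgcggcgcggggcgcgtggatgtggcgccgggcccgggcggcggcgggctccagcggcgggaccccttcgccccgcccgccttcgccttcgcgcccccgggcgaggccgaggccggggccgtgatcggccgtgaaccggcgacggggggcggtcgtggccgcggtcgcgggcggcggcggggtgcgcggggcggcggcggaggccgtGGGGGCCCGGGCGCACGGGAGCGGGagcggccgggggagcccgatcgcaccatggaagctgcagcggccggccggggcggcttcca

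The TGFB1+miR-9-LOF and TGFB1 peaks covered the whole Zdhhc5 and Ncl windows, whereas the Ski peak of TGFB1 cells began 511 bp downstream of the TSS and left its window uncovered. A match to these letters is a description of the sequence and not a folded structure. The share of promoters that hold one is given further below.

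The lists were checked for the labelled cell type and for a few facts of the whole series. Of 14 fibroblast marker genes, 6 had a promoter peak in TGFB1+miR-9-LOF cells, against 9 in TGFB1 and 9 in Ctrl cells. Of the epithelial, endothelial and neural marker genes, 0 had a promoter peak in any list, and of 7 immune markers only Cd14 had one, in TGFB1 and Ctrl cells. The median peak score, the peak caller's number for the strength of a peak, was 46 in TGFB1+miR-9-LOF, 91 in TGFB1 and 80 in Ctrl promoter peaks. The scores are not scaled between libraries and no source used here gives the number of reads behind each list, so the part of depth or of immunoprecipitation yield in any difference below was not tested. The shortest peak was 1000 bp in each of the 3 lists, so a domain below that length could not appear as kept.

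Of the 8669 TGFB1 promoter peaks, 4813 (55.5%, Wilson interval 54.5 to 56.6%) overlapped a TGFB1+miR-9-LOF peak by at least 1 bp and 3856 (44.5%) did not. Peaks that overlapped are called kept in what follows. New positions were nearly absent, since only 8 of the 4818 TGFB1+miR-9-LOF promoter peaks overlapped no TGFB1 peak. Of the 3856 peaks that were not kept, 3379 (87.6%) overlapped a Ctrl peak, against 4792 of the 4813 kept and 8171 of all 8669. Most promoters that did not keep a peak thus carried a listed peak with and without TGFB1, though less often than those that kept one. Of the 498 TGFB1 promoter peaks with no Ctrl peak, 4.22% were kept, against 58.6% of the 8171 that also had a Ctrl peak. The 498 were also weak and short, with a median score of 46 and length of 1236.5 bp, against 94 and 1776 bp for the others. Peaks of their score and length were kept in 9.25% of cases over all promoters.

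The TGFB1+miR-9-LOF list was thus almost wholly contained in the TGFB1 list. Of its promoter peaks, 80.2% (3863 of 4818) lay entirely inside a TGFB1 peak. The 8 that overlapped no TGFB1 peak are named here. Lemd3, an inner nuclear membrane protein that binds receptor SMADs and limits their signalling, had a peak of 1737 bp with a score of 59 in TGFB1+miR-9-LOF cells, none in TGFB1 cells and one of 2433 bp in Ctrl cells. Suv39h2, a histone H3 lysine 9 methyltransferase, had a peak of 1168 bp in TGFB1+miR-9-LOF cells and none in the other lists. Dcp2, the messenger RNA decapping enzyme, had one of 1033 bp and none in the other lists. The other 5 were Anp32b, Mccc1os, Crebzf, Tpp1 and Rbm15b, with 1000 to 1377 bp in TGFB1+miR-9-LOF cells, no TGFB1 peak and a Ctrl peak each. So 6 of the 8 had a peak in Ctrl cells.

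Breaks and joins were as rare as new peaks. In 3 genes 1 TGFB1 peak overlapped 2 TGFB1+miR-9-LOF peaks. At Wrap53, a telomerase assembly factor, peaks of 1055 and 1010 bp in TGFB1+miR-9-LOF cells overlapped a 3817 bp peak of TGFB1 cells. At Tarbp2, a partner of Dicer, peaks of 1194 and 1052 bp stood against 3165 bp in TGFB1 cells. At Ncor1, a nuclear receptor corepressor, peaks of 1085 and 1457 bp stood against 2895 bp in TGFB1 cells. The opposite, 1 TGFB1+miR-9-LOF peak over 2 TGFB1 peaks, was found at Hspa5, Hnrnpdl and Fam160b1. Leaving these out, 4804 TGFB1 promoter peaks were paired with exactly 1 TGFB1+miR-9-LOF peak, and all edge values below are over such pairs.

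The paired peaks had a median length of 1347 bp in TGFB1+miR-9-LOF and 1886 bp in TGFB1 cells. The median log2 length ratio of TGFB1+miR-9-LOF over TGFB1 was -0.48 (interval -0.49 to -0.47), which is 0.715 times the TGFB1 length, with quartiles at -0.66 and -0.31. The TGFB1+miR-9-LOF peak was the shorter one in 4732 pairs, the longer one in 70 and equal in 2. It was shorter by 1.5 times or more in 1661 pairs (34.6%) and by 2 times or more in 167, and longer by 1.5 times or more in 0 pairs (0%). The longest gain was at Zfp110, a zinc finger gene, with 1483 bp in TGFB1+miR-9-LOF, 1102 bp in TGFB1 and 1322 bp in Ctrl cells (log2 0.43). In the 4779 pairs that also had a single Ctrl peak, the medians were 1348 bp in TGFB1+miR-9-LOF, 1887 bp in TGFB1 and 1817 bp in Ctrl cells, and the TGFB1+miR-9-LOF peak was shorter than the Ctrl peak in 96.3%.

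The shortening came from both ends. Withdrawal is the distance in bp by which an edge in TGFB1+miR-9-LOF cells lay nearer the peak's centre than the same edge in TGFB1 cells, taken along the direction of transcription. Its median was 257 bp at the upstream edge (interval 249 to 264) and 241 bp at the downstream edge (interval 233 to 250). The quartiles were 114 and 422 bp upstream and 110 and 408 bp downstream. Each edge was withdrawn in 4322 of 4804 pairs (90.0%). Both edges were withdrawn in 3852 pairs (80.2%), the upstream edge alone in 470, the downstream edge alone in 470 and neither in 12. Of all withdrawn bases, 49.1% were at downstream edges, so on the sum of all promoters the 2 sides contributed almost equally. For scale, the edges of the same peaks in Ctrl cells lay a median of 30 bp (upstream) and 32 bp (downstream) inside those in TGFB1 cells, with a median absolute displacement of 102 and 98 bp.

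**Figure D1:**
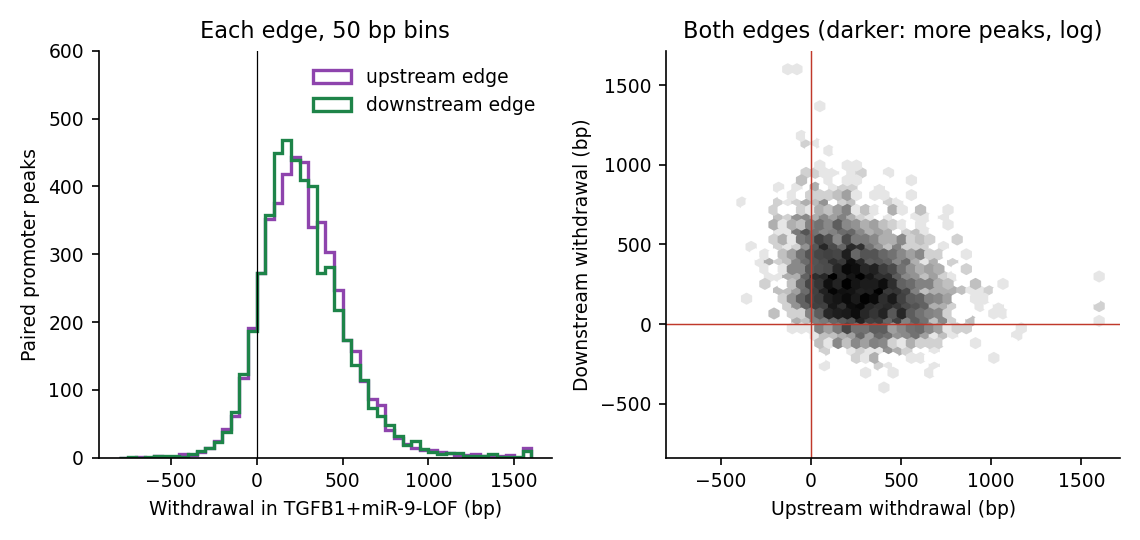
Withdrawal of the upstream and downstream edges of 4804 paired promoter peaks in TGFB1+miR-9-LOF relative to TGFB1 cells, in bp, as counts per 50 bp bin (left) and both edges against each other (right, hexagons shaded by the log of the number of peaks). Values beyond the axis limits are drawn at the limit. The medians are 257 bp upstream and 241 bp downstream, and 3852 pairs lie in the quadrant where both edges were withdrawn.

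Single promoters were often less even than the medians. The pair with the largest upstream withdrawal was Ppp1r18, an actin- and phosphatase-binding protein, whose peak had 1011 bp in TGFB1+miR-9-LOF, 3553 bp in TGFB1 and 3345 bp in Ctrl cells, with 2435 bp withdrawn upstream and 107 bp downstream. Cdk6, a G1 cyclin-dependent kinase, had 1109 bp in TGFB1+miR-9-LOF, 3292 bp in TGFB1 and 3424 bp in Ctrl cells, and 1902 bp were withdrawn upstream against 281 bp downstream. Nipbl, the cohesin loader, had 1366 bp in TGFB1+miR-9-LOF, 3800 bp in TGFB1 and 2263 bp in Ctrl cells, with 1957 bp withdrawn upstream and 477 bp downstream. At Ppp1r18 and Nipbl the remaining peak lay downstream of the TSS, and at Cdk6 it reached 517 bp upstream and 591 bp downstream of it. Purb and Hnrnpul2 completed the 5 largest, with 2190 and 2042 bp withdrawn upstream. Cdk6 and Hnrnpul2 had a second TSS on the opposite strand within 1000 bp upstream. Over all promoter peaks 1191 had such a neighbour and 7476 had none. At such a gene part of the peak can lie over the neighbour, and which gene a withdrawn stretch belonged to was not tested.

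The largest downstream withdrawal was at Hnrnph1, a splicing regulator, with 1060 bp in TGFB1+miR-9-LOF, 2933 bp in TGFB1 and 2873 bp in Ctrl cells and 2003 bp withdrawn downstream. Loxl3, a lysyl oxidase that crosslinks matrix, had 1136 bp in TGFB1+miR-9-LOF, 2935 bp in TGFB1 and 3130 bp in Ctrl cells and 1874 bp withdrawn downstream. Marcks, an actin-binding protein kinase C substrate, had 1059 bp in TGFB1+miR-9-LOF, 3511 bp in TGFB1 and 3210 bp in Ctrl cells, with 1806 bp withdrawn downstream and 646 bp upstream. Ankrd17 and Abhd17b lay between these, at 1997 and 1973 bp. In 4 of these 5 genes, all but Marcks, the upstream edge lay further out in TGFB1+miR-9-LOF than in TGFB1 cells. In all 5 the remaining peak ended upstream of the named gene's TSS, from 1 bp at Ankrd17 to 760 bp at Loxl3. Of pairs with the TSS under the TGFB1 peak only, 27 ended in this way. Ankrd17, Abhd17b, Loxl3 and Marcks also had a second TSS on the opposite strand within 1000 bp upstream, and Hnrnph1 did not.

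Withdrawal could also fall on 1 edge while the other stayed within 50 bp. Rhoa, the GTPase that drives stress fibre assembly, lost 1842 bp upstream and 13 bp downstream, with 1067 bp in TGFB1+miR-9-LOF, 2922 bp in TGFB1 and 2716 bp in Ctrl cells. Trip12, a ubiquitin ligase, lost 1545 bp downstream and 8 bp upstream, with 1427 bp in TGFB1+miR-9-LOF, 2980 bp in TGFB1 and 2262 bp in Ctrl cells. Map4k4, a kinase upstream of JNK, lost 1496 bp downstream and 17 bp upstream. Ubl5 (upstream, 1698 bp) and Bivm (downstream, 1622 bp) were the others of the 5 largest of this kind. Rhoa, Trip12, Ubl5 and Bivm had a second TSS on the opposite strand within 1000 bp upstream, and Map4k4 did not. Which of the 2 neighbouring genes the withdrawn stretch belonged to was not tested. The genes named so far for large withdrawals had TGFB1 scores from 39 at Purb to 104 at Bivm. All were below the median of 110 for kept peaks. Some of their remaining peaks, such as the 1011 bp at Ppp1r18, were near the shortest listed length of 1000 bp.

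Relative to the start site, peaks of both lists lay mostly downstream. In TGFB1+miR-9-LOF cells the median paired peak reached 267 bp upstream and 1094.5 bp downstream of the TSS, against 518 bp upstream and 1323 bp downstream in TGFB1 cells. The TSS itself was under the TGFB1+miR-9-LOF peak in 73.5% of pairs and under the TGFB1 peak in 95.1%. In 1056 pairs the TSS was under the TGFB1 peak only, and in 1029 of them the TGFB1+miR-9-LOF peak began downstream of the TSS. These 1056 pairs had a median withdrawal of 445 bp upstream and 178 bp downstream, where the larger upstream value follows from how the pairs were chosen. The 3515 pairs with the TSS under both peaks had 211 bp upstream and 256 bp downstream. Their TGFB1 scores were close, at a median of 108 and 112. Kmt2c is an example of a peak that began just inside the gene, with its upstream edge 2 bp downstream of the TSS in TGFB1+miR-9-LOF cells and 1474 bp upstream of it in TGFB1 cells. At Cdkn1a the edge lay 26 bp upstream of the TSS in TGFB1+miR-9-LOF cells and 411 bp upstream in TGFB1 cells. The capitals in both printed windows run from that TGFB1+miR-9-LOF edge.

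Cover around all start sites of the TGFB1 list showed the same asymmetry. At 400 bp downstream of the TSS, 51.6% of 8666 start sites were under a TGFB1+miR-9-LOF peak, against 97.8% under a TGFB1 peak, a ratio of 52.8%, the highest of any position. At the TSS the ratio was 44.2%, with 40.8% in TGFB1+miR-9-LOF and 92.4% in TGFB1 cells. At 1000 bp upstream it was 27.0%, with 2.76% in TGFB1+miR-9-LOF and 10.2% in TGFB1 cells. At 1500 bp downstream it was 33.9%, with 7.70% in TGFB1+miR-9-LOF and 22.7% in TGFB1 cells.

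**Figure D2:**
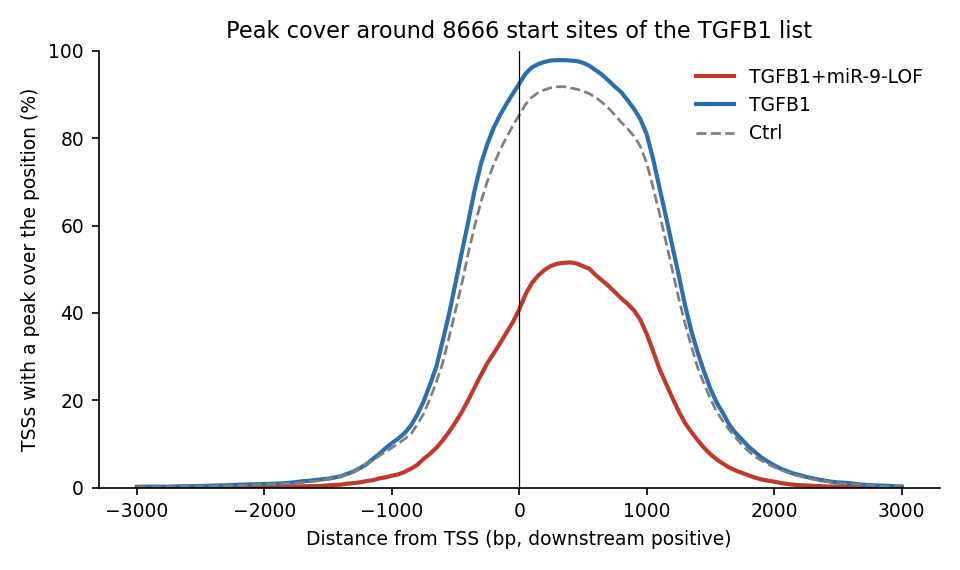
Percent of 8666 start sites of the TGFB1 list with a peak over each position from 3000 bp upstream to 3000 bp downstream of the TSS, for TGFB1+miR-9-LOF, TGFB1 and Ctrl peaks. The TGFB1+miR-9-LOF curve tops out at 51.6%, the TGFB1 curve at 97.9%, and both lie mostly downstream of the TSS. The start sites were taken from the TGFB1 list, which places its curve above the others.

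Which promoters kept a peak went with the score and the length of the TGFB1 peak. Kept peaks had a median TGFB1 score of 110 and length of 1885 bp, against 67 and 1569 bp for peaks that were not kept. In 5 groups of about equal size by TGFB1 score, 12.6, 35.9, 58.6, 79.8 and 93.4% were kept from the lowest to the highest. In 5 groups by length, 13.5, 40.2, 63.2, 78.5 and 82.3% were kept from the shortest to the longest. By length class, 76.1% of 180 peaks over 2700 bp were kept, 82.3% of 1880 peaks of 2000 to 2700 bp and 47.3% of 6609 shorter ones. The longest class was thus not the best kept. Within score groups the share kept rose with length in all but the group next to the highest. There it was 90.0% of 30 peaks over 2700 bp, 93.3% of 464 peaks of 2000 to 2700 bp and 74.5% of 1226 shorter ones. A peak that shortens below the shortest listed length of 1000 bp cannot appear as kept, which bears most on short peaks. The part of this limit in the order by length was not tested. In the lowest score group (scores 25 to 61), 48.8% of 41 peaks over 2700 bp were kept, 28.9% of 149 peaks of 2000 to 2700 bp and 10.2% of 1616 shorter ones. In the highest score group (scores of 126 or more) these shares were 100% of 15, 98.2% of 617 and 90.5% of 1061. The deposited score is on the scale of its own library, and the share of this gradient that depth alone would give was not tested. With a score of at least 60 required in both lists, 13.4% of TGFB1 promoter peaks were kept, because the median TGFB1+miR-9-LOF score was 46 and most of that list is removed.

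**Figure D3:**
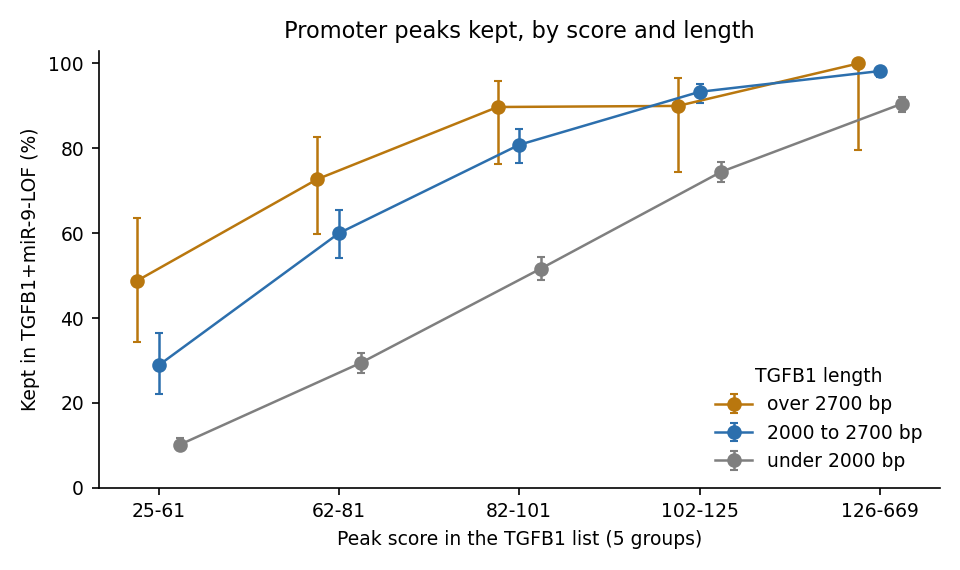
Percent of TGFB1 promoter peaks kept in TGFB1+miR-9-LOF cells in 5 groups by TGFB1 peak score (horizontal axis, score range of each group) and by TGFB1 peak length (colours), with 95% Wilson intervals. Peaks under 2000 bp lie between 10.2% and 90.5% and below the longer peaks in each group.

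The length ratio was nearest to 0 in the strongest peaks. From the lowest to the highest score group the median log2 length ratio was -0.54, -0.58, -0.53, -0.51 and -0.39. In the same order the upstream edge was withdrawn by a median of 312.5, 283, 274.5, 261 and 231.5 bp. The downstream medians were 174.5, 274, 262.5, 254 and 219.5 bp, lowest in the lowest score group and falling over the others. In the lowest score group the intervals of the upstream and downstream medians did not overlap (261 to 388 bp and 132 to 224 bp, 224 pairs), and in the other 4 groups they did. Peaks over 2700 bp withdrew most, by 525 bp upstream and 408 bp downstream, and ended at a median of 1781.5 bp in TGFB1+miR-9-LOF, against 2919 bp in TGFB1 cells. Peaks under 2000 bp withdrew by 227 and 205 bp. These classes were cut on the TGFB1 length, from which withdrawal is measured. The shortest listed length of 1000 bp also leaves short peaks less room to withdraw, so part of this order is built in.

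The 5 strongest promoter peaks of the TGFB1 list that were not kept all had Ctrl peaks. Sgo2a, a shugoshin that protects cohesin in meiosis, had no TGFB1+miR-9-LOF peak, a TGFB1 peak of 1764 bp with a score of 188 and a Ctrl peak of 1696 bp with a score of 128. Vamp8, a vesicle fusion protein, had none in TGFB1+miR-9-LOF cells, 1514 bp with a score of 179 in TGFB1 cells and 1491 bp in Ctrl cells. Cdc27, a subunit of the anaphase-promoting complex, had none in TGFB1+miR-9-LOF cells, 2024 bp with a score of 167 in TGFB1 cells and 2088 bp in Ctrl cells. Such losses were uncommon at these scores, since 93.4% of the highest score group was kept. Gigyf2 and Tspyl1 were the others, at scores of 168 and 161. At the other end, Wdr6 was kept with a TGFB1 score of 28, with 1096 bp in TGFB1+miR-9-LOF and 1121 bp in TGFB1 cells, and Zmynd8, a bromodomain reader, was kept with a score of 32, with 1000 bp in TGFB1+miR-9-LOF, 1374 bp in TGFB1 and 1151 bp in Ctrl cells.

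Of the 5 genes the study picked besides its negative control, 3 kept a peak. Ncl, which encodes nucleolin, a protein that binds G-quadruplexes, had 2060 bp in TGFB1+miR-9-LOF, 3093 bp in TGFB1 and 2669 bp in Ctrl cells, with 733 bp withdrawn upstream and 300 bp downstream. Zdhhc5, a palmitoyltransferase, had 1905 bp in TGFB1+miR-9-LOF, 2606 bp in TGFB1 and 1911 bp in Ctrl cells, so its TGFB1+miR-9-LOF peak was close to the Ctrl length. Its withdrawal was 187 bp upstream and 514 bp downstream. Ep300, the histone acetyltransferase p300, had 1300 bp in TGFB1+miR-9-LOF, 2443 bp in TGFB1 and 2143 bp in Ctrl cells, with 1202 bp withdrawn downstream and an upstream edge 59 bp further out. These 3 promoters held a peak in each list but ended at different sides. Hdac7, a class IIa histone deacetylase, had no TGFB1+miR-9-LOF peak, 1790 bp in TGFB1 and 1741 bp in Ctrl cells. Lzts2, a regulator of beta-catenin export, had no TGFB1+miR-9-LOF peak over either of its TGFB1 peaks of 1399 and 1098 bp. The study's negative control gene Prap1 had no promoter peak in any list.

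Genes of the TGFB pathway are given from the SMADs and their regulators to ligands, receptors and response genes. The gene lists were chosen with earlier results of these data known. The lists are described by their counts, beside 55.5% kept over all promoters and the share kept among all peaks of like score and length, formed over 10 groups by score and 5 by length. Of 18 promoter peaks of SMADs and their regulators, 4 were kept (22.2%, interval up to 45.2%), against 49.1% for peaks of like score and length. It was the only list whose like-peak share lay outside its interval, and no allowance was made for the number of lists. Like-peak shares take no account of chromosome. Smad2 and Smad4 lie on chromosome 18, Ski and Zfyve9 on 4, Ppm1a on 12 and Usp9x on X. On these chromosomes kept shares were below like-peak shares, as given below, and the part of this was not tested. Of these 18 peaks, 17 had a Ctrl peak, as did 8171 of 8669 over all promoters. Lemd3, a member of the list that had no TGFB1 peak, is not among the 18 and has a TGFB1+miR-9-LOF peak, as given above.

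Among the SMADs themselves only Smad3 was kept. Smad3, a receptor-activated SMAD of the TGFB branch, had 1104 bp with a score of 34 in TGFB1+miR-9-LOF cells, 2295 bp with a score of 91 in TGFB1 cells and 1961 bp with a score of 108 in Ctrl cells, with 623 bp withdrawn upstream and 568 bp downstream. Smad2, its partner in the same branch, had no TGFB1+miR-9-LOF peak, 1446 bp with a score of 40 in TGFB1 cells and no Ctrl peak. Smad4, the common partner, had none in TGFB1+miR-9-LOF cells, 1698 bp in TGFB1 and 1327 bp in Ctrl cells. The scores of both TGFB1 peaks, 40 and 49, were in the lowest score group, where 12.6% of all peaks were kept. Smad1, a receptor-activated SMAD of the BMP branch, had none in TGFB1+miR-9-LOF cells although its TGFB1 score was 131, in the highest score group, with 1625 bp in TGFB1 and 1607 bp in Ctrl cells. Smad5, Smad6 and Smad9 also had none, with TGFB1 scores of 59, 40 and 91.

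The regulators around them split as follows. Smurf2, a ubiquitin ligase that removes receptors and SMADs, had 1471 bp in TGFB1+miR-9-LOF, 2127 bp in TGFB1 and 1860 bp in Ctrl cells. Skil, which encodes the corepressor SnoN, had 1090 bp in TGFB1+miR-9-LOF, 1743 bp in TGFB1 and 1916 bp in Ctrl cells. Usp15, a deubiquitinase that acts on the receptor complex, had 1198 bp in TGFB1+miR-9-LOF, 2039 bp in TGFB1 and 2047 bp in Ctrl cells. Those 3 and Smad3 made up the 4 that were kept. Ski, the corepressor related to SnoN, had no TGFB1+miR-9-LOF peak, 2433 bp in TGFB1 and 2506 bp in Ctrl cells. Stub1, a chaperone-bound ubiquitin ligase, had none in TGFB1+miR-9-LOF cells, 2758 bp with a score of 104 in TGFB1 and 2548 bp in Ctrl cells. Pmepa1, a target and inhibitor of TGFB signalling, had none in TGFB1+miR-9-LOF cells, 2759 bp in TGFB1 and 2024 bp in Ctrl cells. Trim33, Tgif1, Ppm1a, Usp9x and Zfyve9 had none either.

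Of 15 promoter peaks of TGFB ligands and receptors, 5 were kept (33.3%, interval 15.2 to 58.3%), against 46.3% for peaks of like score and length. Tgfb1, the ligand itself, had 1250 bp in TGFB1+miR-9-LOF, 2066 bp in TGFB1 and 2264 bp in Ctrl cells. Tgfbr2, the receptor that binds the ligand first, had 1213 bp in TGFB1+miR-9-LOF, 1957 bp in TGFB1 and 1901 bp in Ctrl cells, with 690 bp withdrawn downstream and 54 bp upstream. Tgfbr1, the kinase it activates, had no TGFB1+miR-9-LOF peak, 1959 bp in TGFB1 and 1551 bp in Ctrl cells. The receptor pair thus differed, with TGFB1 scores of 111 for Tgfbr2 and 57 for Tgfbr1. Tgfb2 and Tgfb3 had no TGFB1+miR-9-LOF peak, with TGFB1 scores of 48 and 44. Bmpr2, the type II BMP receptor, was kept, with 1817 bp in TGFB1+miR-9-LOF, 2935 bp in TGFB1 and 2550 bp in Ctrl cells and 975 bp withdrawn upstream. Tgfbr3 and Gdf11 were kept too. Acvr1, Acvr1b, Acvr2a, Acvr2b, Bmpr1a, Bmp1 and Inhbb were not. The intervals of both lists are wide, and the list of ligands and receptors includes its like-peak share in its interval.

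Of 26 promoter peaks of genes that respond to TGFB1, 17 were kept (65.4%, interval 46.2 to 80.6%), against 60.6% for peaks of like score and length. The TGFB1+miR-9-LOF peak was shorter than the Ctrl peak in all 17, against 96.3% over all pairs. Sgk1, a kinase induced by serum and TGFB1, had 1019 bp in TGFB1+miR-9-LOF, 3504 bp in TGFB1 and 1142 bp in Ctrl cells, so its long peak was seen in TGFB1 cells alone. Acta2, smooth muscle actin and a marker of myofibroblasts, had 1504 bp in TGFB1+miR-9-LOF, 1655 bp in TGFB1 and 2069 bp in Ctrl cells, with 90 bp withdrawn upstream and 61 bp downstream. Its log2 ratio of -0.14 was the nearest to 0 of the 17. Snai1, a transcription factor of mesenchymal change, had 1831 bp in TGFB1+miR-9-LOF, 2508 bp in TGFB1 and 2566 bp in Ctrl cells. Id2, Fgf2, Timp1, Ccn1 and Itgb5 had no TGFB1+miR-9-LOF peak. Id1 and Id3, which like Id2 encode inhibitors of helix-loop-helix factors, were kept, with 1982 and 1399 bp in TGFB1+miR-9-LOF, 2411 and 1817 bp in TGFB1 and 2422 and 1507 bp in Ctrl cells.

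Extracellular matrix genes were kept in 16 of 19 cases (84.2%, interval 62.4 to 94.5%), against 78.7% for peaks of like score and length. Their median withdrawal was 441 bp downstream (interval 343 to 601) and 263 bp upstream (127 to 380), intervals that overlap, and in 12 of 16 pairs the downstream edge moved more, against 2328 of 4804 pairs over all promoters. They were shorter by 1.5 times or more in 10 of 16 pairs, against 34.6% over all pairs and 46.1% in the longest of the 5 length groups. Matrix peaks were long, with a median of 2188.5 bp in TGFB1 cells, and the shortest listed length of 1000 bp leaves short peaks no room for such a difference (0% in the shortest length group). Col1a1, a chain of type I collagen, had 2013 bp in TGFB1+miR-9-LOF, 2665 bp in TGFB1 and 1775 bp in Ctrl cells, the 1 pair of the 16 in which the TGFB1+miR-9-LOF peak was longer than the Ctrl peak. Col1a2, the other chain, had 1065 bp in TGFB1+miR-9-LOF, 1883 bp in TGFB1 and 1758 bp in Ctrl cells. Fn1, fibronectin, had 1327 bp in TGFB1+miR-9-LOF, 2196 bp in TGFB1 and 1879 bp in Ctrl cells. The chains assemble into the same collagen molecule, and their TGFB1+miR-9-LOF peaks lay at opposite sides of their Ctrl lengths. Col5a1 had 1226 bp in TGFB1+miR-9-LOF, 2397 bp in TGFB1 and 2557 bp in Ctrl cells, with 1171 bp withdrawn downstream and 0 bp upstream. Vcan, Fbn1 and Mmp2 had no TGFB1+miR-9-LOF peak, and Vcan, a large matrix proteoglycan, had 2988 bp in TGFB1 cells at a score of 61.

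Housekeeping groups were among the lists with the highest shares kept. Of 61 cytosolic ribosomal protein promoters 53 were kept (86.9%), against 84.4% for like peaks, and their downstream edge withdrew by a median of 355 bp (275 to 439) and the upstream edge by 186 bp (131 to 338), again with overlapping intervals. Of 36 proteasome subunit promoters 30 were kept (83.3%, interval 68.1 to 92.1%), against 69.6% for like peaks. Psma7 had 1725 bp in TGFB1+miR-9-LOF, 2508 bp in TGFB1 and 2094 bp in Ctrl cells, and Psmc6 was one of few genes with a longer peak, at 1710 bp in TGFB1+miR-9-LOF, 1622 bp in TGFB1 and 1631 bp in Ctrl cells. Of 59 splicing factor and hnRNP promoters 47 were kept (79.7%, interval 67.7 to 88.0%), against 68.9% for like peaks. Respiratory chain genes were kept in 48 of 63 cases (76.2%, like peaks 72.2%) and translation factors in 40 of 51 (78.4%, like peaks 76.6%), both near their like-peak shares. Within these lists some genes were without a peak, among them Rplp0, Eef1a1 and Hnrnpk, with TGFB1 lengths of 2164, 2668 and 2443 bp. Mitochondrial ribosomal proteins were kept in 39 of 63 cases, near their like-peak share of 62.2%.

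Homeobox genes, which encode developmental transcription factors, had a low share kept. Of 35 homeobox promoters 10 were kept (28.6%, interval 16.3 to 45.1%), against 36.9% for like peaks, a value inside that interval. Of the Hox genes of the list, Hoxa5 and Hoxb9 were kept and Hoxa3, Hoxa4, Hoxa7, Hoxa10, Hoxb4, Hoxb7, Hoxc4 and Hoxc8 were not. Hoxb9 had 1011 bp in TGFB1+miR-9-LOF, 1941 bp in TGFB1 and 1859 bp in Ctrl cells, and its TGFB1 score of 143 was the highest of the Hox genes. Prrx1, a homeobox factor of mesenchyme, had 2321 bp in TGFB1+miR-9-LOF, 2691 bp in TGFB1 and 2459 bp in Ctrl cells. Zinc finger genes of the Zfp series, mostly DNA-binding repressors, were at their like-peak share. Of 266 Zfp promoters 127 were kept (47.7%), against 47.8% for like peaks. Of 23 receptor tyrosine kinase promoters 11 were kept (47.8%), against 50.7% for like peaks. Igf1r, the insulin-like growth factor receptor, had 1125 bp in TGFB1+miR-9-LOF, 2835 bp in TGFB1 and 1960 bp in Ctrl cells, and Pdgfra, a receptor that marks fibroblasts, had no TGFB1+miR-9-LOF peak over either of its TGFB1 peaks of 1949 and 1509 bp.

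**Figure D4:**
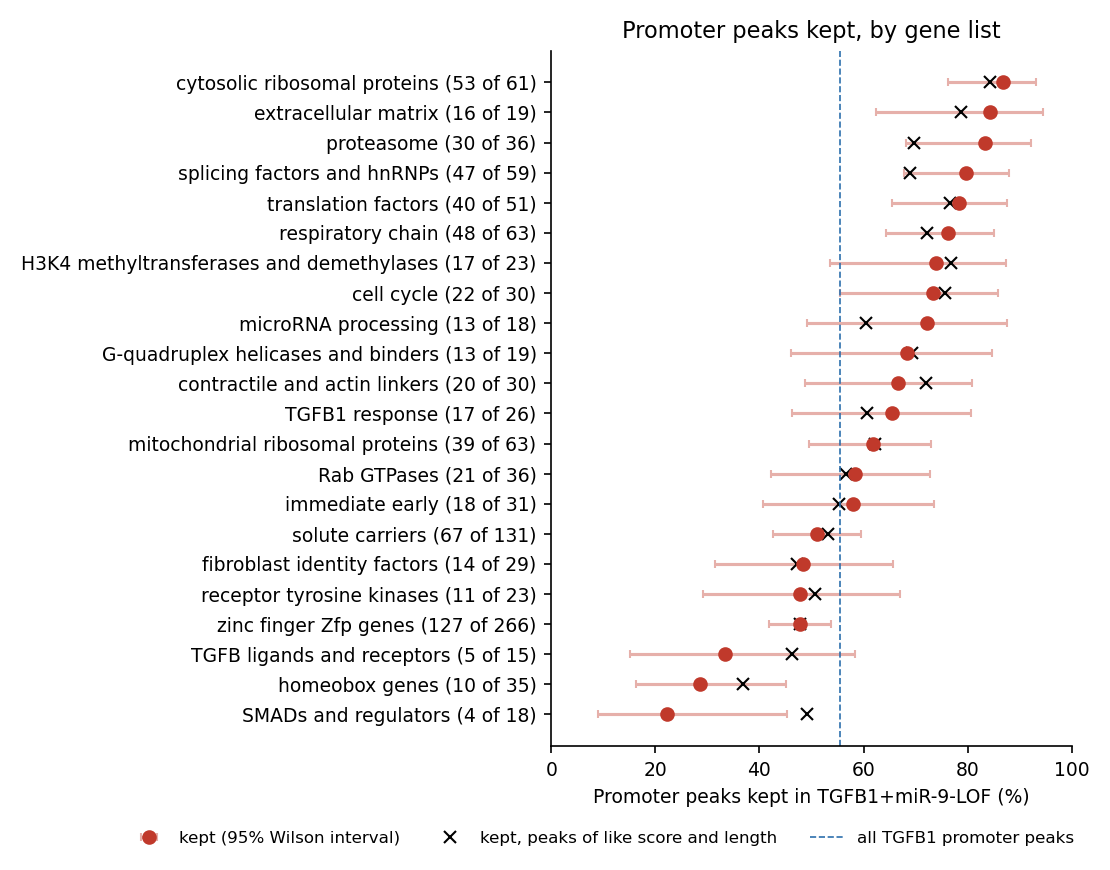
Percent of TGFB1 promoter peaks kept in TGFB1+miR-9-LOF cells for each gene list with at least 15 promoter peaks (points, with 95% Wilson intervals and the counts beside the names), the share kept among all peaks of like score and length (crosses) and over all TGFB1 promoter peaks (dashed line, 55.5%). The SMAD list, at 22.2% of 18, has its cross at 49.1%, above its interval. It is the only plotted list with its cross outside its interval, and no allowance was made for the number of lists.

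Genes that make or use microRNAs and those that write the mark were looked at as groups that bear on the treatment. Of 18 promoter peaks of microRNA processing genes 13 were kept (72.2%, interval 49.1 to 87.5%), against 60.4% for like peaks. Drosha, the nuclear nuclease that cuts primary microRNAs, had 1531 bp in TGFB1+miR-9-LOF, 1971 bp in TGFB1 and 2348 bp in Ctrl cells. Ago2, the Argonaute that cleaves targets, had 1428 bp in TGFB1+miR-9-LOF, 2168 bp in TGFB1 and 2076 bp in Ctrl cells. Dicer1, the nuclease that makes the mature duplex, had no TGFB1+miR-9-LOF peak, 1446 bp in TGFB1 and 1652 bp in Ctrl cells. Of 23 promoter peaks of H3K4 methyltransferase and demethylase genes 17 were kept, against 76.9% for like peaks. Kmt2d had 1270 bp in TGFB1+miR-9-LOF, 2682 bp in TGFB1 and 2831 bp in Ctrl cells, and Kmt2a, also a writer of the mark, had no TGFB1+miR-9-LOF peak, 2465 bp in TGFB1 and 2428 bp in Ctrl cells. Of 19 promoters of G-quadruplex helicases and binders 13 were kept, against 69.2% for like peaks, among them Dhx36, the main helicase that unwinds such structures, with 1116 bp in TGFB1+miR-9-LOF, 1647 bp in TGFB1 and 1891 bp in Ctrl cells.

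Kept shares differed widely between chromosomes. They were highest on chromosomes 19 (70.5%), 10 (69.5%) and 11 (69.5%) and lowest on 4 (39.0%), 12 (31.5%), 16 (25.2%) and X (14.9%, 36 of 241). The order followed the median score of the chromosome's promoter peaks, both in the TGFB1 list (Spearman rho 0.96) and in the Ctrl list (rho 0.97, each over 20 chromosomes that share a library). The median TGFB1 score was 107 on chromosome 19 and 56 on X, and the median Ctrl score was 98 and 55. The difference from the share kept among peaks of like score and length ranged from -8.12 to 3.83 percentage points. The like-peak share was above the interval on X (23.1%, interval up to 20.0%) and 16 (32.7%, interval 20.3 to 30.8%) and below it on chromosome 2 (55.4%, interval 55.6 to 62.8%). On 18, 12 and 4 the observed share was also below the like-peak shares of 45.5, 36.0 and 41.7%, within the intervals. The chromosomes with low shares thus had low scores in the TGFB1 and Ctrl libraries as well. The number of copies of each chromosome in MLg cells was not measured here and its part was not tested. The withdrawal of the peaks that were kept varied less, with a median log2 ratio between -0.58 and -0.39 over the 20 chromosomes.

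**Figure D5:**
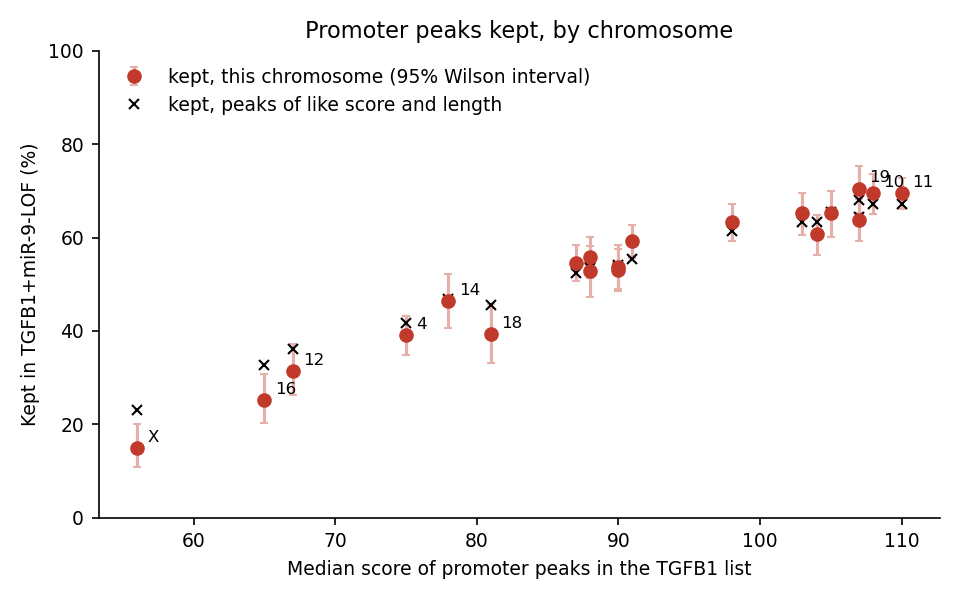
Percent of TGFB1 promoter peaks kept in TGFB1+miR-9-LOF cells for each of 20 chromosomes against the median score of its promoter peaks in the TGFB1 list, with 95% Wilson intervals, and the share kept among all peaks of like score and length (crosses). Chromosome X, with a median score of 56, lies at 14.9%, and chromosome 11, with a median score of 110, at 69.5%.

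The DNA under the withdrawn stretches differed between the 2 sides. Stretches withdrawn upstream were CpG-rich, with 56.0% G+C and a CpG frequency of 0.65 of that expected from base composition, close to the part that remained (56.7% and 0.69). Stretches withdrawn downstream had 46.4% G+C and a CpG ratio of 0.34, near the flank of 500 bp outside the TGFB1 peak on that side (44.3% and 0.24). G-quadruplex matches, as defined above, had a density of 88.6 per 100 kb in the upstream withdrawn stretches, 67.2 in the remaining part, 35.6 in the downstream withdrawn stretches and 41.4 and 23.2 in the upstream and downstream flanks. These values are pooled over all stretches of a kind and do not place the edges of single peaks. The paired TGFB1 peaks reached a median of 518 bp upstream and 1323 bp downstream of the TSS. The withdrawn stretches of the 2 sides thus lay at unlike distances from the TSS, and the part of that distance in the contrast was not tested. At Zdhhc5 and Ncl, where the printed windows hold a match of 21 and 23 bases, the TGFB1+miR-9-LOF peak still covered the window.

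Promoter windows differed little by whether the peak was kept. A G-quadruplex match was in 28.9% of the windows of kept peaks and 33.6% of those of peaks that were not kept, against 31.0% of all TGFB1 promoter peaks and 18.6% of all 32851 RefSeq promoter windows. Read the other way, 51.7% of peaks with a match were kept and 57.2% of those without. Within score groups the shares with a match were close, 32.5% of kept and 35.7% of not kept peaks in the lowest and 24.7% and 26.8% in the highest. The median CpG ratio was 0.84 for kept and 0.78 for not kept peaks. In pairs with a match the upstream edge withdrew by 282 bp (266 to 293), against 246 bp (237 to 257) in pairs without, and the downstream edge by 234.5 and 244 bp.

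Promoters that share their upstream side with a gene on the other strand were looked at separately. With a second TSS on the opposite strand within 1000 bp upstream, 71.8% of 1191 peaks were kept, against 52.9% of the 7476 others. Peaks of like score and length were kept in 68.2% and 53.5%, so these groups also differed in score and length. Withdrawal of the upstream edge was alike, 252.5 bp with and 257.5 bp without such a neighbour, and that of the downstream edge was 281 and 233 bp. Of 91 genes with 2 TGFB1 promoter peaks, 39 kept 1 of them, 21 kept both and 31 kept none.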

How the data were processed

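H3K4me3 ChIP-seq peak lists of 3 MLg libraries, 1 per condition, were used. Per the labels and the submitters' processing notes, the authors used Trimmomatic, Bowtie2 on mm10, Picard 1.119, deepTools 3.5.1, MACS3, bedtools and HOMER, which annotated each peak with its nearest TSS. The study describes broad peak calling with fragments extended to 1000 bp, and the shortest listed peak was 1000 bp in each list. The deposited score of each peak is the peak caller's score, which is not scaled between libraries, so scores were ranked only within a list. The use of an input control and the read depth were not given in the sources used here, so the precision set by depth is unknown.

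Peak length was end minus start plus 1. Promoter peaks lay within 2000 bp of a TSS, kept peaks overlapped by at least 1 bp, and paired peaks overlapped exactly 1 peak in each direction. Strand was solved from the deposited distances to the TSS for 18020 of 22802 peaks and taken from RefSeq for 4777, with 5 unknown. The solved strand equalled the RefSeq strand in 99.9% of 17985 peaks. Intervals were 95% Wilson intervals for shares and order-statistic intervals for medians. Like peaks fell in the same of 10 groups by TGFB1 score and of 5 groups by length, each list's own peaks included. Withdrawn stretches of at least 50 bp entered the sequence comparison. The scripts were tested on simulated lists, in which 100% of 8669 kept flags and 100% of 5170 edge pairs came out right. Python 3.11.15, pandas 2.3.3, numpy 2.4.6, scipy 1.17.1, statsmodels 0.14.6 and matplotlib 3.10.9 were used.

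The genes named were those the study chose, the 5 most extreme peaks by score, edge withdrawal or length gain, peaks found in TGFB1+miR-9-LOF alone, split peaks and the longest members of each gene list. Other list members were named for their role after their values were seen, as were the joined peaks and the genes whose windows are printed. The promoter peaks, the comparison and the 30 gene lists were chosen with earlier results of these data known. The alternatives were another promoter limit, overlap, score or length minimum, a TGFB1 list reduced to the size of the other, 1 peak per gene name, RefSeq strands and, chosen after seeing the data, leaving out 5 chromosomes.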

Additional observations from a re-analysis of the deposited data

How the results depend on the processing

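Of 52 alternative values for 7 results under 8 settings, 38 stayed within the 95% interval of the value reported and 14 moved outside. For the count of shorter pairs the limit was 1.5 times, and for the downstream share it was 1 percentage point. Only the median log2 length ratio and the median withdrawals could change sign, and 0 of their values did. With a score of at least 60 in both lists, 13.4% of TGFB1 promoter peaks were kept and the median log2 length ratio was -0.38. The withdrawal was then 221 bp upstream and 219 bp downstream, and 167 of 946 pairs were shorter by 1.5 times or more. That setting removes most of the TGFB1+miR-9-LOF list by construction. With the TGFB1 list reduced to its 4959 highest scoring peaks (lowest score 85), 78.7% were kept and the median log2 ratio was -0.46. Of its 3816 pairs, 1202 were shorter by 1.5 times or more, against 1661 of 4804 in the main comparison. With TGFB1 peaks of at least 1500 bp only, 66.5% were kept, the median log2 ratio was -0.50 and the downstream withdrawal was 251 bp. Without chromosomes 4, 12, 16, 18 and X, a setting chosen after seeing the data, 60.6% were kept. The share of TGFB1+miR-9-LOF peaks wholly inside a TGFB1 peak was 81.8%, 64.7% and 82.0% under the first 3 of these settings. These shares have unlike denominators. The 64.7% counts TGFB1+miR-9-LOF peaks whose TGFB1 peak was removed as not inside, so a fall is built in. The 82.0% is over the 4548 pairs of that setting only. No paired analysis was possible because each group had 1 library, and no replicate could be left out for the same reason. Depth, immunoprecipitation yield and the antagomiR cannot be told apart with 1 library per condition.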
